A study of Mus musculus with 2 samples.

Results

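The subject is the PPARγ binding found at the genes of 4 transcription regulators of brown fat, Ppara, Prdm16, Ppargc1a and Ebf2. Members are the regions of the 2 deposited lists whose midpoint fell inside a fixed mm9 interval around each gene, and 27 of the 8268 deposited regions did so. Of these, 24 came from the list of brown-specific regions (3557 in all) and 3 from the list of white-specific regions (4711 in all). The intervals run from 85460000 to 85680000 on chromosome 15 for Ppara, from 153640000 to 154110000 on chromosome 4 for Prdm16, from 51795000 to 52050000 on chromosome 5 for Ppargc1a and from 67752000 to 68100000 on chromosome 14 for Ebf2. They include flanks, so a region inside one was not thereby shown to act on the named gene.

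PPARγ is a nuclear receptor that binds DNA with its partner RXR and switches on the genes of fat cell differentiation in every kind of fat cell. Brown adipose tissue (BAT) burns fatty acids to make heat, and epididymal white adipose tissue (eWAT), the depot beside the testis, stores lipid. The 4 genes here encode proteins that give brown fat cells their character. PPARα is a related receptor that activates fatty acid oxidation, and PRDM16 is a zinc finger protein that promotes the brown fate. PGC-1α, the product of Ppargc1a, is a coactivator that drives mitochondrial biogenesis and responds to cold, and EBF2 is a DNA-binding factor selective for brown over white fat cell precursors.

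Chromatin immunoprecipitation with a PPARγ antibody, followed by sequencing, was done on 2 tissues, BAT and eWAT. The BAT group and the eWAT group were both taken from male mice of strain 129SV, 8 to 10 weeks old, with no genetic change or drug named, fed normal chow and killed at zeitgeber time 10 h. ChIP DNA of 4 mice per tissue was pooled before sequencing, so each tissue has a single library and variation between animals was not measured. No difference given here was checked in replicates, and no expression was measured, so the tissue labels could not be compared with marker genes. Both are whole tissues, in which binding in a part of the cells and weaker binding in all of them cannot be told apart.

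Each deposited region spans 200 bp and carries a score with no stated unit. Scores rose in even steps, 0.0687 wide for BAT and 0.348 wide for eWAT, and values are also given in these score steps. If each step stands for 1 tag and the totals were scaled alike, the BAT library was 5.07 times as deep. The intervals given with score steps are exact 95% Poisson intervals under the assumption of 1 tag per step, and they cover counting error alone. Scores were therefore read within a list, by rank or by the share of the list with a lower score. Ties were given the best rank they share, but tied regions do not count as lower. Ties were many in the eWAT list, where steps are wide. Sites bound in both tissues are not analysed here, and a region missing from a list is not shown to be unbound in that tissue.

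Regions at the 4 regulators came mostly from the brown list. Of the 27 regions, 24 (88.9%, exact 95% interval 70.8 to 97.6%) were BAT-specific, against 43.0% of all 8268 regions of both lists. BAT-specific regions outnumbered eWAT-specific ones at each gene: 9 to 1 at Ppara, 9 to 1 at Prdm16, 3 to 0 at Ppargc1a and 3 to 1 at Ebf2. The chromosomes that carry these genes held BAT shares of 43.2% (chromosome 15), 43.4% (chromosome 4), 39.4% (chromosome 5) and 45.8% (chromosome 14) over their whole length. A closer background is windows of each interval's width, tiled over the genome, with at least as many regions of both lists. A BAT share as high was found in 0 of 4 such windows for Ppara and 5 of 22 for Prdm16. For Ppargc1a it was found in 193 of 1084 and for Ebf2 in 205 of 680. The 5 include the window that covers the Prdm16 regions themselves. At Ppargc1a and Ebf2 the counts were small, and the exact 95% interval on the BAT share ran from 29.2 to 100% for Ppargc1a and from 19.4 to 99.4% for Ebf2, both of which include the share over all regions. For Ppara and Prdm16 it ran from 55.5 to 99.7%. Regions at 1 gene lie close together and are not independent, so these intervals are too narrow. Counting regions of the same list up to 1.25 times 10 kb apart as 1 left 4 BAT-specific sites and 1 eWAT-specific site at Ppara, and the same at Prdm16. No interval was computed for these merged counts. The genes and intervals were also chosen with earlier results of these data known. The intervals on the BAT share therefore do not show that Ppara or Prdm16 differs from the share over all regions. The eWAT library was the shallower one on the reading of steps as tags, and the part of depth in the BAT-specific and eWAT-specific counts was not tested.

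**Figure D1:**
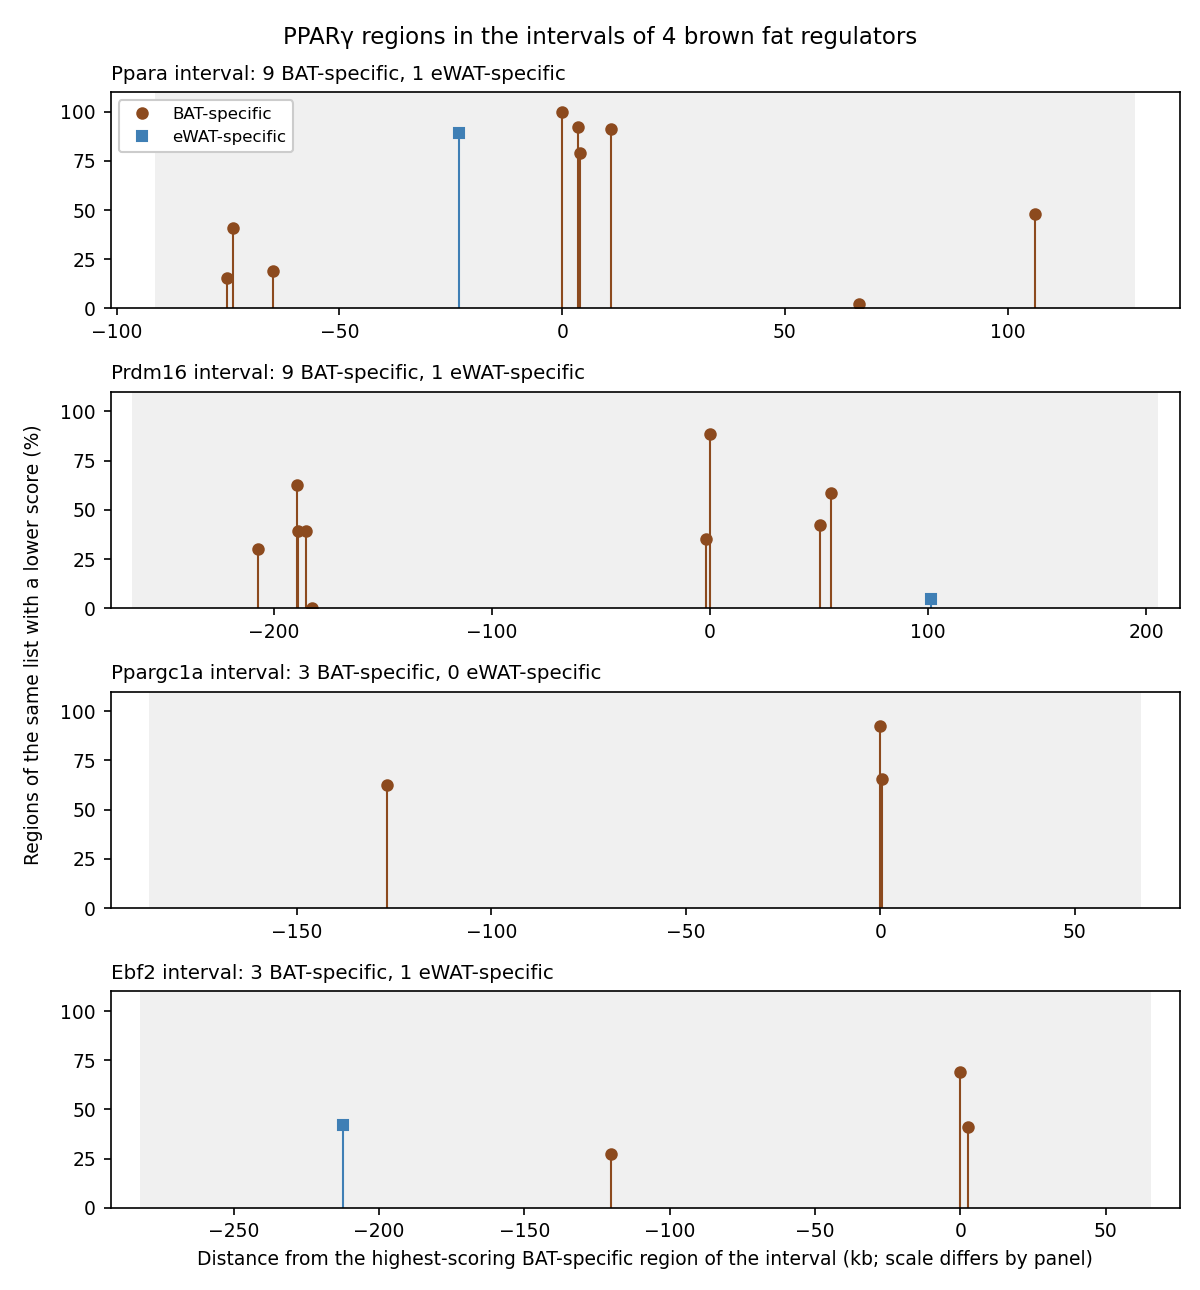
Position and relative score of every deposited region in the 4 gene intervals (grey bands). The horizontal axis is the distance in kb from the highest-scoring BAT-specific region of the interval, and the vertical axis is the percent of regions of the same list with a lower score. Brown circles are BAT-specific and blue squares eWAT-specific regions. Tied regions do not count as lower, so the eWAT-specific region at Ebf2, at its list median, is drawn at 42.3%. Most BAT-specific regions of Ppara (7 of 9) and Prdm16 (8 of 9) stand within 10 kb of another. No interval holds more than 1 eWAT-specific region. In the whole eWAT list the median distance to the nearest other eWAT-specific region was 71.6 kb.

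The Ppara interval was the most crowded. It held 9 BAT-specific regions in 220 kb, a density of 40.9 per Mb, and windows of that width tiled over the genome held a mean of 0.297. Most windows were empty, with a region of either list in 4365 of 11950. Windows with at least 9 BAT-specific regions made up 0.00837% of all of them, a single window, or 0.0229% of those that held a region. That window lay on chromosome 11 and held 10 BAT-specific and 2 eWAT-specific regions. The Ppara regions themselves were divided between neighbouring windows, and when the tiling was shifted by a part of a window (a choice made after the data were seen), 2 windows reached 9, one of which held the Ppara regions.

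The highest-scoring member of all stood in a group of 4 at Ppara within 11.2 kb. This region, chr15:85551275-85551474, scored 12.77, or 186 score steps (160 to 215), which was rank 14 of the 3557 BAT-specific regions. Rightward of it along the chromosome came regions starting at 85554744 (score 7.49, 109 steps, rank 264), at 85555364 (score 5.29, 77 steps, rank 730) and at 85562259 (score 7.21, 105 steps, rank 304). All 4 lay above the median score of the BAT list, 3.57, and 3 of them were in the top 10% of the list by score. The interval of the highest region did not overlap that of the next (89.5 to 131 steps).

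A weaker group of 3 stood 64.9 to 75.3 kb to the left of that highest region. Its regions began at 85475934 (score 2.47, 36 steps), 85477399 (score 3.16, 46 steps) and 85486422 (score 2.54, 37 steps), and 15.4%, 40.9% and 18.9% of the BAT list scored lower. Their Poisson intervals overlapped one another, so no order among them can be read. The remaining BAT-specific regions of the Ppara interval stood alone, at 85617939 with a score of 2.13 (rank 3388) and at 85657504 with a score of 3.50 (rank 1780). Scores at this gene therefore ran from near the floor of the list to near its top.

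The single eWAT-specific region of the Ppara interval, chr15:85528049-85528248, lay between the group of 3 and the group of 4, 23.2 kb from the highest BAT-specific region. Its score of 5.57, or 16 score steps (9.15 to 26.0), was above that of 89.3% of the eWAT list, the highest relative position of the 3 eWAT-specific members. The next eWAT-specific region was 354 kb away. In the gene order of the GRCm38 RefSeq table, Ppara lies between Wnt7b and Cdpf1, with the let-7 genes Mirlet7c-2 and Mirlet7b between Wnt7b and Ppara. That table is of another build than the lists, so no region could be assigned to an exon, an intron, a promoter or the space between these genes.

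The Prdm16 interval held as many BAT-specific regions as that of Ppara, in 470 kb. Its density was 19.1 per Mb, and 0.161% of 5590 windows of its width (0.297% of the 3027 that held a region) held at least 9 BAT-specific regions. That is 9 windows, 1 of which covers the Prdm16 regions themselves. The 9 regions spanned 263 kb with no eWAT-specific region between them. Their median score was 3.09, or 45 steps, beside 3.50, or 51 steps, at Ppara, and the scores of the 2 genes overlapped. At Prdm16 3 of the 9 lay above the median of the BAT list.

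At Prdm16 too the largest group had 4 regions, here within 7.12 kb. They began at 153715146 (score 4.12, 60 steps), 153716010 (score 3.09, 45 steps), 153719371 (score 3.09, 45 steps) and 153722065 (score 1.99, 29 steps). The last of these was among the weakest of the list, with 0.253% of BAT-specific regions scoring lower. A further region at 153697362 (score 2.82, 41 steps) stood 17.8 kb to the left of the group. The scores of this group (1.99 to 4.12) all lay below those of the group of 4 at Ppara (5.29 to 12.77). The counting intervals of the highest here (45.8 to 77.2 steps) and the lowest there (60.8 to 96.2 steps) overlapped.

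The highest score at Prdm16 belonged to a pair farther right. The region chr4:153904597-153904796 scored 6.66, or 97 steps (78.7 to 118), at rank 383, and its partner 1.85 kb to the left scored 2.95 (43 steps, 31.1 to 57.9). Another pair began at 153955099 (score 3.23, 47 steps) and 153959958 (score 3.91, 57 steps). The lone eWAT-specific region, chr4:154005813-154006012, lay 45.9 kb beyond this pair. It scored 2.09, or 6 score steps (2.20 to 13.1), and 4.61% of the eWAT list scored lower. This score was shared by 1018 eWAT-specific regions, so its place in the list is loosely set. If a step is a tag, this region rests on few reads. In GRCm38 gene order, Prdm16 lies between Arhgef16 and Actrt2.

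The Ppargc1a interval had fewer regions, all of them BAT-specific. The pair chr5:51982867-51983066 and chr5:51983206-51983405 had midpoints 0.339 kb apart, the closest of any 2 members. The left one scored 7.55, or 110 steps (90.4 to 133), at rank 256, in the top 10% of the list, and the right one scored 4.26, or 62 steps (47.5 to 79.5). These intervals did not overlap, although regions this close can share sequenced fragments. The third region, chr5:51856059-51856258, stood 127 kb to the left with a score of 4.12 (60 steps, 45.8 to 77.2).

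All 3 Ppargc1a regions lay above the median score of the BAT list, and 62.7% of the list or more scored lower than each. Windows of the same 255 kb width with at least 3 BAT-specific regions made up 3.27% of 10310, or 8.21% of the 4105 windows that held any region, so the count here was much more common over the genome than the counts at Ppara and Prdm16. Ppargc1a was the member farthest from white-specific binding. Its BAT-specific regions lay 665 to 792 kb from the nearest eWAT-specific region, and the flanking eWAT-specific regions were 2502 kb apart. Ppargc1a lies between Adgra3 and Dhx15 among the coding genes in GRCm38 order.

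Ebf2, the gene named in the title of the series, had the lowest density of BAT-specific regions of the 4, at 8.62 per Mb. A pair 2.71 kb apart comprised chr14:68034352-68034551 (score 4.46, 65 steps, 50.2 to 82.8, rank 1059) and chr14:68037059-68037258 (score 3.16, 46 steps, 33.7 to 61.4, rank 2052). A lone region at 67914016 scored 2.75 (40 steps, 28.6 to 54.5). The intervals of the 3 overlapped pairwise, and 1 of the 3 scored above the list median. Windows of the same 348 kb width with at least 3 BAT-specific regions made up 5.27% of 7554, or 11.2% of the 3558 windows that held any region. The eWAT-specific region chr14:67822039-67822238 lay 92.0 kb to the left of the lone BAT-specific one and scored 2.79, or 8 steps (3.45 to 15.8), which is the median of the eWAT list. Ebf2 lies between Ppp2r2a and Cdca2 in GRCm38 order.

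**Figure D2:**
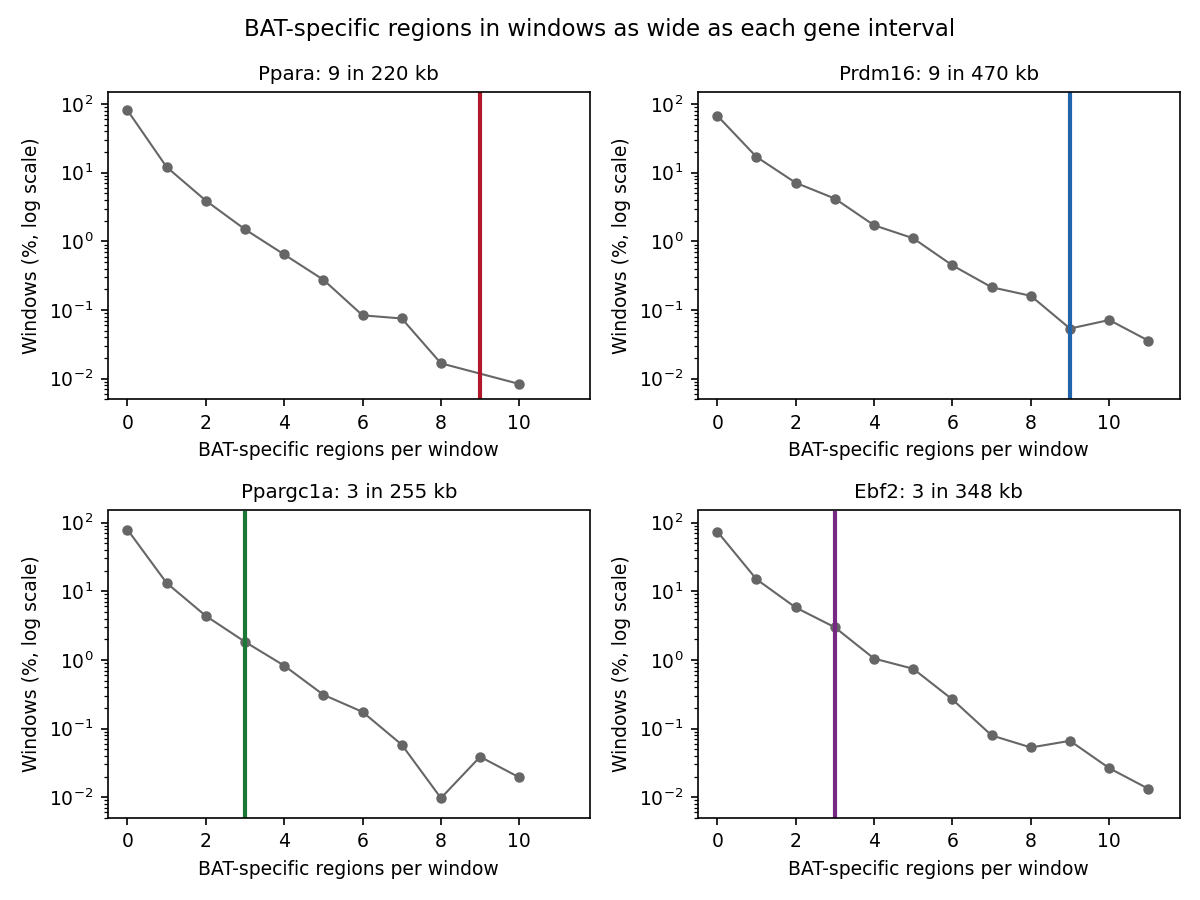
Number of BAT-specific regions in windows as wide as each gene interval, tiled over the genome from the start of each chromosome. The horizontal axis is the number of BAT-specific regions in a window, and the vertical axis is the percent of windows on a log scale. The coloured line marks the count in the gene interval: 9 for Ppara and Prdm16, reached by 0.00837% and 0.161% of windows, and 3 for Ppargc1a and Ebf2, reached by 3.27% and 5.27%.

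The scores of the members spread around the middle of the BAT list. The 24 regions scored from 1.99 to 12.77 with a median of 3.37 (binomial 95% interval of the median 2.95 to 4.46), and the median of the whole BAT list was 3.57. Above the list median were 11 of the 24 (45.8%), against 48.1% of the list. In the top 10% of the list by score were 4 of the 24 (16.7%), against 10.2% of the list. Of these 4, 3 belonged to the group of 4 at Ppara and 1 to the pair at Ppargc1a. The scores at Ebf2 and Prdm16 stayed below that limit.

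**Figure D3:**
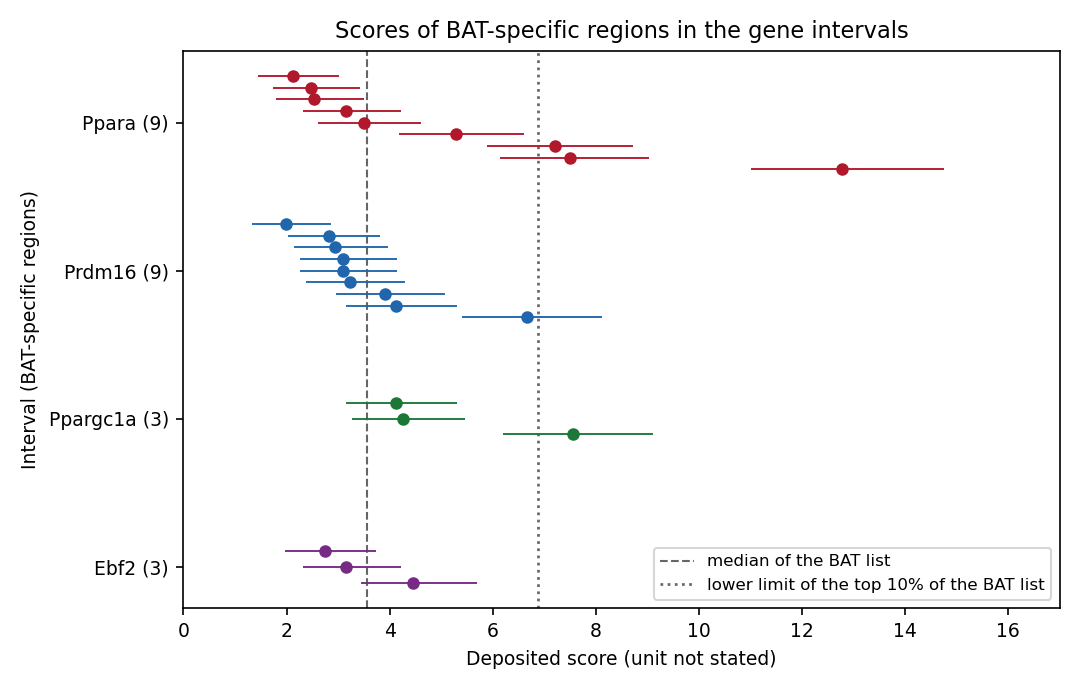
Deposited score of each of the 24 BAT-specific regions, by gene. Points are regions, horizontal bars are exact 95% Poisson intervals under the assumption of 1 tag per score step, and the vertical lines mark the median (3.57) and the lower limit of the top 10% (6.87) of the BAT list. The regions scatter around the list median, with Ppara reaching 12.77.

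BAT-specific regions at these genes stood close to others of their kind. With another BAT-specific region within 10 kb were 19 of the 24 (79.2%), against 21.2% of the BAT list. By gene these were 7 of 9 at Ppara, 8 of 9 at Prdm16, 2 of 3 at Ppargc1a and 2 of 3 at Ebf2. The median distance to the nearest other BAT-specific region was 2.70 kb for the members and 61.4 kb for the list. An interval with many regions brings them close together, so this share and the counts above are not separate observations for Ppara and Prdm16. At Ppargc1a and at Ebf2 the 2 close regions are a single pair, each counted as the neighbour of the other.

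Chained at 10 kb, the 24 regions fell into 2 clusters of 4, 1 cluster of 3, 4 pairs and 5 single regions. The BAT list as a whole held 9 clusters of 4 and 39 of 3. Clusters of 3 or more held 11 of the 24 regions (45.8%), all at Ppara or Prdm16, against 4.44% of the list. These 11 are the 2 clusters of 4 and the cluster of 3, so this share too is not separate from the counts at those genes. No member of the BAT list (0 of 24) had an eWAT-specific region within 10 kb, against 4.53% of the list. The members' median distance to the nearest eWAT-specific region was 102 kb, and that of the list was 149 kb.

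**Figure D4:**
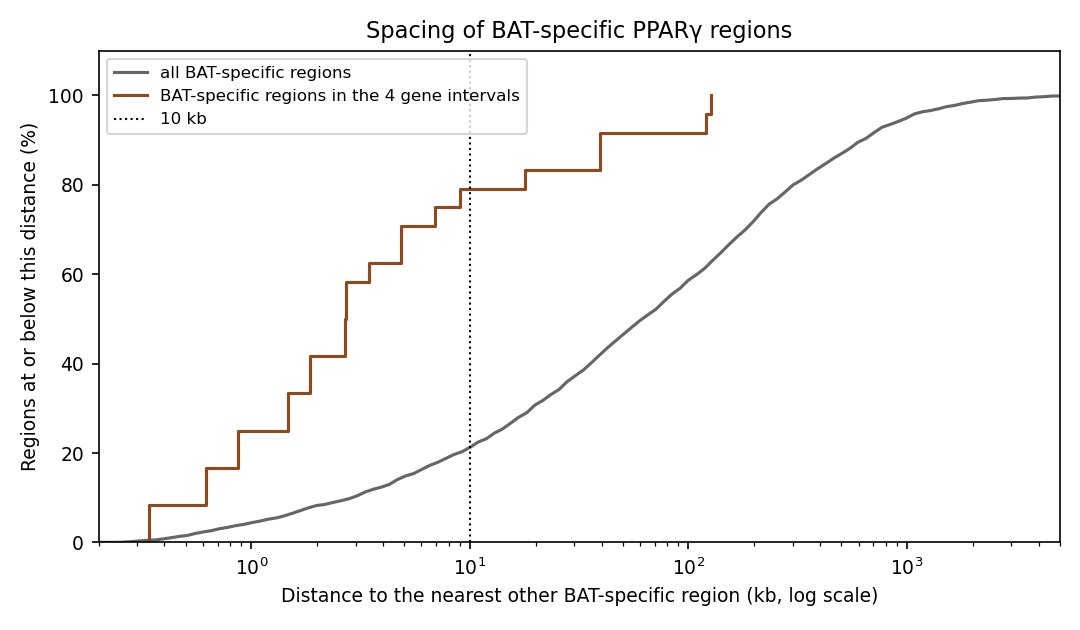
Cumulative percent of BAT-specific regions by the distance in kb (log scale) to the nearest other BAT-specific region, for all 3557 regions (grey) and for the 24 in the gene intervals (brown). At 10 kb (dotted line) the brown curve stands at 79.2% and the grey curve at 21.2%.

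Moving the limits of the intervals changed the count at Ppara alone. Widening by 50 kb on each side added no region and could add none, since the nearest one outside lay 78.8 kb away. Narrowing by 25 kb left 21 of the 24 BAT-specific regions and all 3 eWAT-specific ones. The BAT-specific count at Ppara fell from 9 to 6. The nearest region outside was eWAT-specific for Ebf2, 78.8 kb past its right limit (score 3.48), and for Prdm16, 162 kb past its right limit (score 2.44). For Ppargc1a it was a BAT-specific region 127 kb to the left (score 8.52), and for Ppara a BAT-specific region 231 kb to the right (score 2.88). The regions nearest to a limit on the inside were those of Ppara at 85475934 (score 2.47) and 85477399 (score 3.16) on the left and at 85657504 (score 3.50) on the right, the 3 that narrowing removed. The BAT-specific region with the fourth highest score of the whole list, chr14:68244354-68244553 (score 15.45), lay 144 kb past the right limit of the Ebf2 interval and is not counted as a member.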

How the data were processed

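The authors deposited 1 headerless list of 200 bp regions per tissue, with a score per region whose unit is not stated. The submitters' processing notes name Bowtie, HOMER and the builds mm8 and mm9, without versions or roles. The rule for tissue specificity, the peak threshold and the use of input are not stated. Peaks came from pooled ChIP DNA. With chromosome lengths taken from general knowledge of the builds, 64 regions (46 on chromosome 7) lay past the chromosome ends of mm8 and 0 past those of mm9, so positions were read as mm9 and are printed 1-based.

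Regions were assigned by midpoint, and every region in an interval is described. Score steps were searched over a grid, refined by least squares and accepted only where nearly all scores were whole multiples within 0.005. At the accepted steps this held for 99.9% of BAT and 99.8% of eWAT scores, a high share that the search required. Evenly spread values would give 14.6% and 2.87% at a step fixed beforehand, which is not the setting of a search. The step fit and the counting were tested on simulated data. Shares carry exact (Clopper-Pearson) 95% intervals. Windows were tiled from each chromosome start to its last region, chromosome Y left out. No test was run between tissues, since each list gives values of its own library. The genes, intervals and measures were chosen with earlier results of these data known. Sequences and gene structure of mm9 were not used here. Python 3.11.15, NumPy 2.4.6, pandas 2.3.3, SciPy 1.17.1 and matplotlib 3.10.9 were used.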

Additional observations from a re-analysis of the deposited data

How the results depend on the processing

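The BAT share of the regions stayed between 80.0 and 96.0% in all 12 alternatives run, inside the interval of the value reported. Widening, any overlap and holding both lists to the lowest BAT score kept the same regions, so those settings add nothing. Leaving out 1 gene at a time used subsets of the same regions. Requiring 10 score steps left 1 of the 3 eWAT-specific regions, that of Ppara, and all 24 BAT-specific ones; it asks for a higher score of eWAT-specific regions and could remove those alone. Holding each list to its own median score left 11 BAT-specific and 2 eWAT-specific regions, a BAT share of 84.6%. The median score of the 11 was 5.29, and its rise is by construction. Counting regions of the same list as 1 at 1.25 times the chaining distance of 10 kb left 12 BAT-specific sites, 4 each at Ppara and Prdm16, beside 3 eWAT-specific ones. The other settings kept the counts of the 4 genes within 1.5 times, and widening by 50 kb changed none of them. That limit was met exactly at Ppara on narrowing (6 against 9) and at Ppargc1a on merging within 1 kb (2 against 3). The close-neighbour share, with alternatives chosen after the data were seen, ran from 70.8 to 91.7%. With neighbours within 5 kb it was 70.8% against 14.7% of the list, and with neighbours within 50 kb 91.7% against 46.4%. No paired analysis was possible because there is 1 library for each tissue, and for the same reason no library could be left out. Counting precision is lowest in the eWAT list, whose members rest on 6, 8 and 16 score steps.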

Other observations

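Read along the chromosome, with both lists merged, BAT-specific regions came in runs unbroken by an eWAT-specific one, 1524 runs in all. The 9 regions of Prdm16 formed a single run, and 38 runs in the BAT list were at least as long, holding 11.6% of BAT-specific regions. The group of 4 at Ppara and the 2 single regions to its right belonged to a run of 7, and so did the 3 regions of Ppargc1a. Runs of 7 or more numbered 81 and held 20.5% of BAT-specific regions. The 3 regions of Ebf2 and the group of 3 at Ppara were each a run of 3, a length reached by 457 runs with 61.1% of BAT-specific regions. The longest run had 16 regions. These are descriptions of the merged lists, chosen after the data were seen.

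A stretch crowded with BAT-specific regions lay farther left of Ebf2, apart from its interval. A window from 66975001 to 67445000 on chromosome 14, left of the interval, held 10 BAT-specific and 0 eWAT-specific regions. It was found in the tiling shifted by a part of a window, among windows picked for holding at least 9 BAT-specific regions. Its width was that of the Prdm16 interval (470 kb), wider than that of Ebf2 (348 kb). The nearest of its regions to Ebf2 began at 67428156 (score 4.74), 324 kb left of the interval, with no BAT-specific region between. An eWAT-specific region at 67627192 (score 2.79) did lie between, 125 kb left of the interval. On the right, the first BAT-specific region lay 144 kb past the interval, beyond an eWAT-specific region at 78.8 kb (score 3.48). The nearest region outside was thus eWAT-specific on each side. Which genes these regions act on was not tested.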
